A study of Mus musculus with 9 samples.

Results

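In 459 of the 124860 open chromatin regions of the mouse mammary gland, accessibility in pregnancy was above the average of both earlier stages in ER+ luminal, ER- luminal and basal cells alike. The regions were chosen by their accessibility values. The log2(value + 1) in the pregnancy library had to lie at least 1 above the mean of the puberty and adult libraries of the same cell type, in each of the 3 cell types, and each of the 3 pregnancy values had to reach 20. The difference between pregnancy and the mean of both earlier stages is called the gain below. It chose the regions, so it is described here without a test. Regions with consecutive numbers in the table form a run. Of the gained regions, 430 stood alone and 29 fell into 5 runs, 1 of which held 20 regions.

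ATAC-seq uses the enzyme Tn5, which inserts sequencing adapters into DNA that nucleosomes leave free. It was applied to epithelial cells sorted from mammary glands at puberty, in adulthood or in mid pregnancy. The 9 groups were ER+ luminal, ER- luminal and basal cells at each of the 3 stages, and all carried the genotype ERrtTA/TetOCre/rosaYFP, a tetracycline-controlled Cre recombinase with a yellow fluorescent reporter. Each group had 1 library, so no comparison within a cell type had a replicate. The labels give neither the ages, the number of animals pooled, nor whether doxycycline, which switches such a Cre on, was given. Regions carry numbers without coordinates or gene names, so sequences, nearby genes and marker genes of the sorted types are not described here.

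The mammary epithelium is built of an inner luminal and an outer basal layer. ER+ luminal cells bear receptors for oestrogen and pass hormone signals on to their neighbours. ER- luminal cells include the progenitors of the milk-secreting alveoli that form in pregnancy, and basal cells contract to expel the milk. Open chromatin marks promoters, enhancers and other sites where regulatory proteins bind DNA, and pregnancy is known to change it widely in this tissue.

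Depth differed with stage. The 3 pregnancy libraries held 2186941 to 3418164 reads in regions, against 6679907 to 11328189 in the 6 earlier libraries. The deposited values are divided by a size factor per library. Even so, the 90th percentile of values exceeded the 10th by 16.3 to 35.0 times in the pregnancy libraries and by 39.8 to 88.3 times in the earlier ones. With reads thinned to the depth of the shallowest library the same limits gave 532 regions, 305 of them among the 459, with a longest run of 20. Over all regions, a gain of at least 1 was found in 25.0% in ER+ luminal cells, 16.6% in ER- luminal cells and 17.0% in basal cells. All 3 gains and the minimum value together were met by 0.368%, which are the gained regions themselves.

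The limits of the choice cut through a continuous range of values. Of 34641 regions past the minimum in the 3 pregnancy libraries, 26910 had a gain of at least 1 in none of the cell types, 5394 in 1, 1878 in 2 and 459 in all 3. The smallest of the 3 gains was 1.0013 in the region just inside the limit and 0.9994 in the region just outside it. It lay between 1 and 1.1 in 103 gained regions, and between 0.9 and 1 in 122 regions that were left out. The lowest pregnancy values among the gained regions were 20.34 in ER+ luminal cells, 21.23 in ER- luminal cells and 21.99 in basal cells, which correspond to 12, 14 and 10 reads. Another 2067 regions had the 3 gains but missed the minimum value, and their highest values under it were 18.65, 19.72 and 19.79 in the same order of cell types.

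The run of 20 regions, numbered 15132 to 15151, held the region with the highest mean gain of the whole table. Within it the median gain was 6.41 in ER+ luminal cells, 6.22 in ER- luminal cells and 6.39 in basal cells. Of the 22 gained regions with a mean gain over the cell types of at least 4, 17 belonged to this run and 4 stood alone. The median value of its 20 regions was 0.53 at puberty, 3.85 in adults and 284.8 in pregnancy in ER+ luminal cells. In ER- luminal cells the medians were 1.08, 4.09 and 229, and in basal cells 4.75, 2.76 and 271.6. The pregnancy medians of the run lay well above the pregnancy medians of all regions, 16.95, 15.17 and 17.59.

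Single regions of this run had almost no read before pregnancy. Region merged15135 had a single read in the 6 earlier libraries, in adult ER- luminal cells. In pregnancy it had values of 183, 137 and 202 in ER+ luminal, ER- luminal and basal cells, which was at least 187-fold higher in ER+ luminal and at least 171-fold higher in basal cells, counting the absent reads as 3 over both earlier libraries. Region merged15145 had the largest mean gain of the 459 regions, 7.65. Its values were 0.53, 0 and 1.58 at puberty, 0.86, 3.71 and 1.58 in adults, and 384.8, 432 and 457 in pregnancy, for ER+ luminal, ER- luminal and basal cells. Its 3 pregnancy libraries lay close together and far above the 6 earlier ones, which held 11 reads in all. Region merged15140 was the brightest inside the run that was low before, with 1098, 1411 and 1073 in pregnancy against 7.89 to 41.9 in the earlier libraries. Region merged15151, the last of the run, had 1382, 1075 and 1234 in pregnancy against 127 to 694 in the earlier libraries, where it was already open.

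Summed over the 20 regions, normalised reads in pregnancy were set against both earlier libraries of the cell type pooled, where the deeper library weighs more. The ratio to this pooled level was 25.1 in ER+ luminal cells (95% counting interval 23.4 to 27.0). It was 15.1 in ER- luminal cells (14.2 to 16.1) and 11.4 in basal cells (10.7 to 12.1). These intervals cover counting error within the libraries at hand. Region merged15151 supplied 601 of the 918 earlier reads of the run in ER+ luminal cells, 980 of 1243 in ER- luminal cells and 1306 of 1579 in basal cells. As a share of all reads in regions, the run took 0.168% in ER+ luminal cells, 0.132% in ER- luminal cells and 0.148% in basal pregnancy libraries, against 0.00326% to 0.0136% in the 6 earlier libraries.

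The 3 cell types reached similar pregnancy levels in this run. The log2 distance between the highest and the lowest of the 3 pregnancy values had a median of 0.46 over the 20 regions. It was 1.15 over the gained regions outside runs and 0.74 over the 34182 other regions past the minimum. These sets differ in reads per region, and fewer reads widen such a distance through counting error. Median pregnancy reads in ER+ luminal, ER- luminal and basal cells were 168, 151 and 123.5 in the run. They were 18, 37 and 16 outside runs and 34, 49 and 32 in the other regions. Sets of like depth were not compared. In 20 of the 20 regions every pregnancy value lay above every earlier value of any cell type, which held for 1.63% of all regions. This count uses the values that chose the regions.

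**Figure D1:**
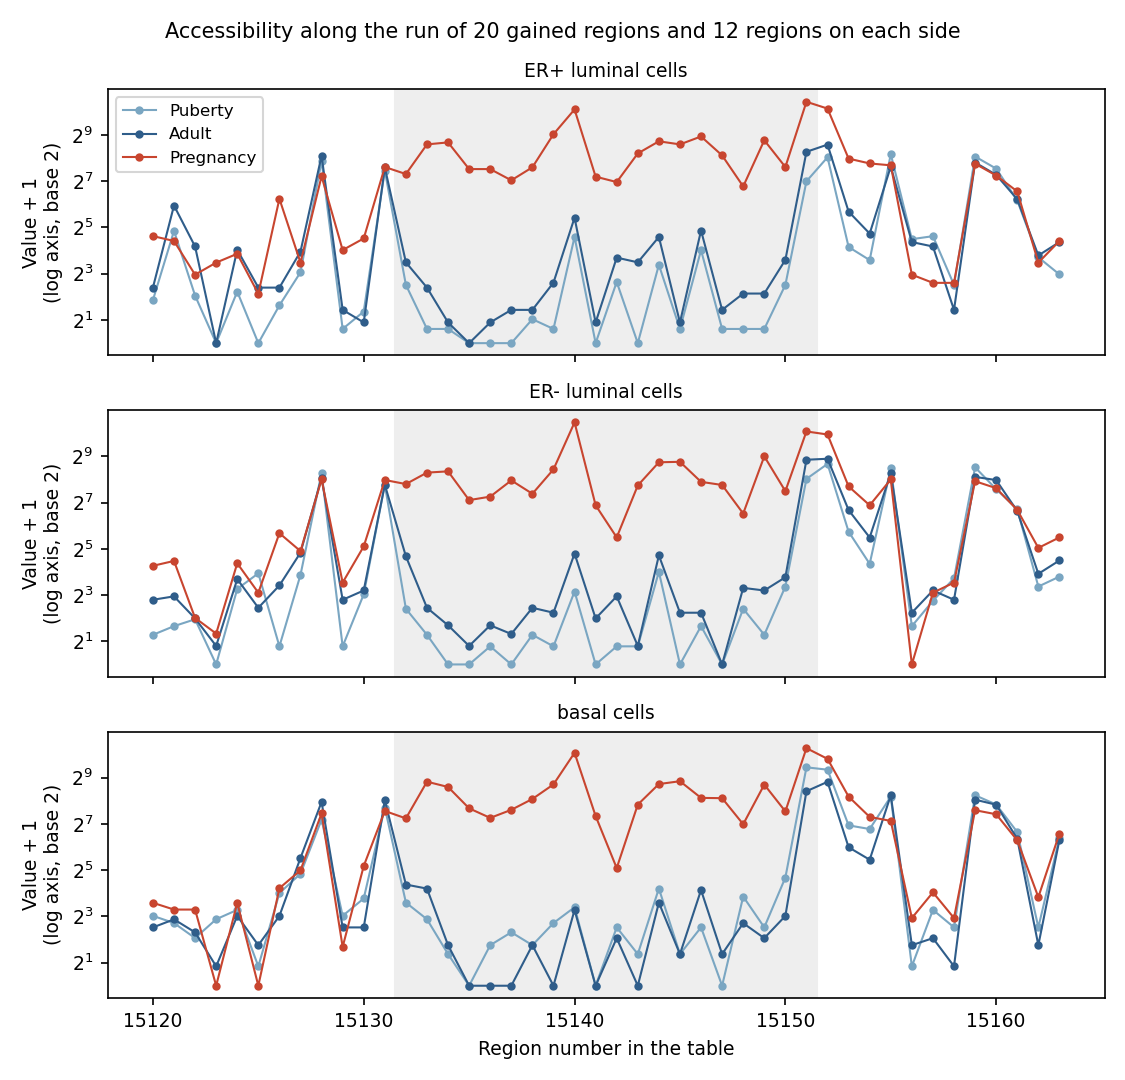
Value + 1 of each region on a log axis of base 2, by region number, for the run of 20 gained regions (grey band) and 12 regions on each side, in 3 panels for ER+ luminal, ER- luminal and basal cells. Lines show the puberty, adult and pregnancy library of each cell type, 1 library each. Pregnancy lies far above both earlier stages inside the band and close to them at most numbers outside it.

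The gain dropped at the first region below the run and stepwise above it, but gains recurred further down. Region merged15131, just below the run, was open at the 3 stages and had gains of 0.09, 0.20 and -0.31 in ER+ luminal, ER- luminal and basal cells. Region merged15130, the next one down, was itself gained, with gains of 3.40, 1.99 and 2.03. It rose from low values to 22.0, 33.4 and 35.2 in pregnancy. Further down, merged15129 had gains of 3.00, 1.75 and -1.09, and merged15126 of 4.22, 3.58 and 0.71. Between these 2, merged15128 had -0.77, -0.17 and -0.11. Above the run, region merged15152 had gains of 1.83, 1.16 and 0.73 and was left out for its basal value alone. The next 2 regions, 15153 and 15154, were gained again and form a run of their own with a mean gain of 2.17. In region merged15155 the gains were -0.21, -0.38 and -1.08. The table does not say whether consecutive numbers are neighbours in the genome. Over all pairs of consecutive numbers the mean gain had a Pearson r of 0.173 across regions, against -0.004 for numbers 100 apart. Both members of a pair come from the same 9 libraries.

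The 3 other runs were short and weaker. Regions 54427 to 54429 had a mean gain of 3.34, led by merged54429, with values of 0, 3.58 and 7.12 at puberty, 6.84, 8.91 and 4.74 in adults, and 120.4, 60.7 and 114 in pregnancy, for ER+ luminal, ER- luminal and basal cells. Regions 44830 and 44831 had a mean gain of 3.00, with pregnancy values of 25.8 to 42.4. Regions 104408 and 104409 had a mean gain of 1.92 and were less even. There adult ER- luminal cells had 65.4 and 41.6 and adult ER+ luminal cells 7.70 and 1.71. A mirrored choice, with a loss of at least 1 in pregnancy in each cell type and at least 20 in the 6 earlier libraries, found 789 regions. Of these 39 fell into runs, the longest of which held 3 regions, against 20 for the gained regions.

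Outside runs, region merged3152 had the largest mean gain. It had 0, 4.30 and 5.54 at puberty, 2.57, 2.97 and 3.95 in adults and 493, 305 and 349.7 in pregnancy, in ER+ luminal, ER- luminal and basal cells. The 3 pregnancy libraries stood far above the 6 earlier ones, whose values did not exceed 6. Both earlier libraries of a cell type were again pooled by depth, and together held 3 reads in ER+ luminal cells. The ratio of pregnancy to this pooled level was 505 there (95% counting interval 171 to 2460). It was 83.6 in ER- luminal cells (44.5 to 177) and 73.7 in basal cells (41.1 to 146).

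Region merged642 had the highest pregnancy level of the gained regions, was already open at puberty and rose in 2 steps. Its values were 558, 604 and 599.9 at puberty, 3339, 2373 and 2964 in adults and 6516, 9495 and 4284 in pregnancy, in ER+ luminal, ER- luminal and basal cells. At each step the 3 libraries of the later stage lay above the 3 libraries of the stage before, with no overlap. Its gains were 2.25, 2.99 and 1.68. This 1 region held 20.6% of the reads of all gained regions in the ER+ luminal pregnancy library, 21.2% in ER- luminal and 13.3% in basal cells, and 44.0% in adult ER+ luminal cells. Summed reads over the gained regions therefore lean on it, and medians over regions are used below.

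**Figure D2:**
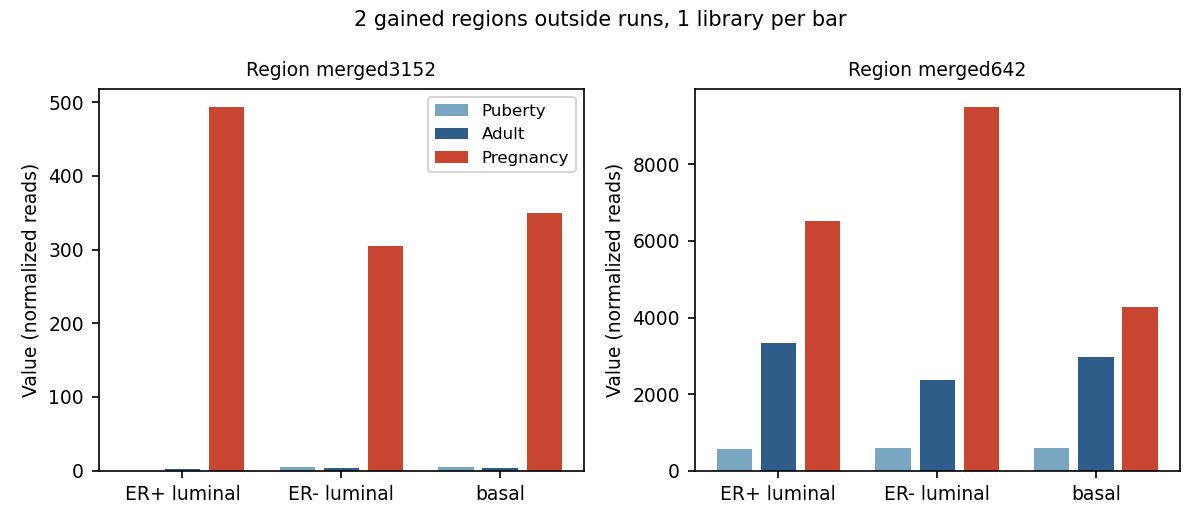
Deposited value (normalised reads, linear axis from 0) of the gained regions merged3152 and merged642 in each of the 9 libraries, with 1 bar per library, coloured by stage and grouped by cell type. Region merged3152 is visible in pregnancy alone at this scale, with 305 to 493, and region merged642 is higher in adults (2373 to 3339) than at puberty (558 to 604) and higher again in pregnancy.

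The 430 gained regions outside runs were weakly accessible before pregnancy and differed in level between the cell types. Their median values were 4.21 at puberty, 5.99 in adults and 30.5 in pregnancy in ER+ luminal cells. In ER- luminal cells they were 12.9, 26.4 and 56.1, and in basal cells 12.7, 11.1 and 35.2. The pregnancy medians rest on 18, 37 and 16 reads per region. Among the 34182 other regions past the minimum, the medians were higher at each stage and changed little with it, with 79.9, 74.4 and 57.6 in ER+ luminal, 87.5, 85.4 and 74.3 in ER- luminal and 78.4, 89.97 and 70.4 in basal cells. The pregnancy medians of the gained regions lay below those of the other regions in the 3 cell types. A low earlier value makes a gain of 1 easier to reach, so the low earlier medians follow in part from the choice.

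**Figure D3:**
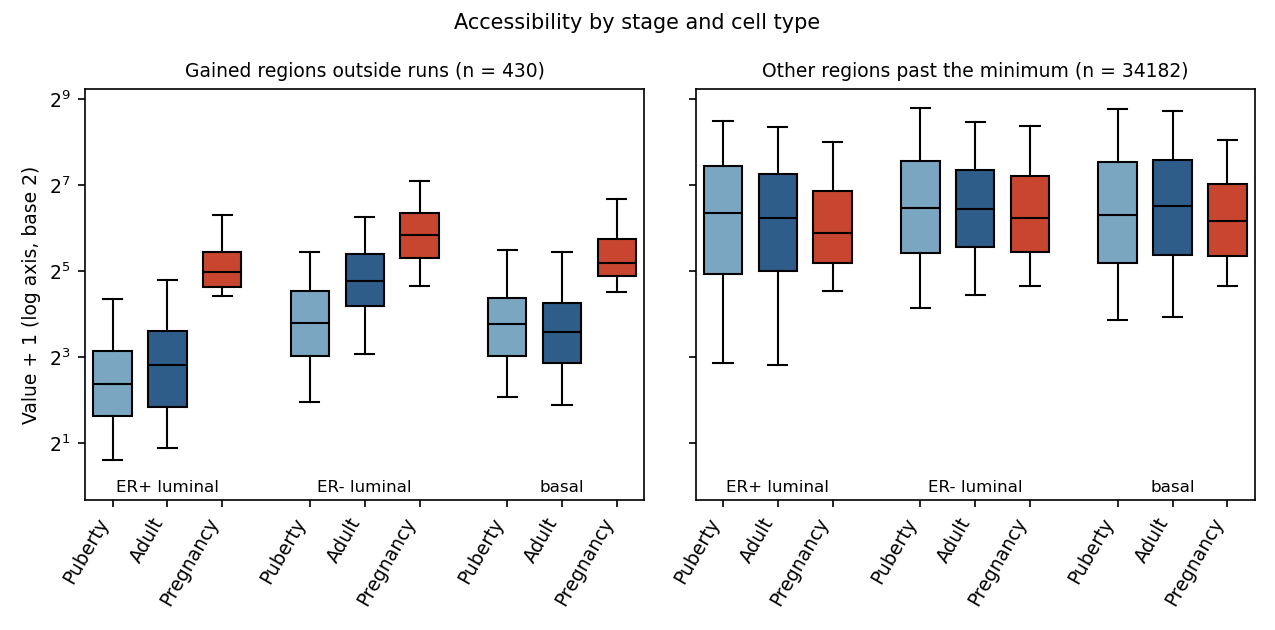
Boxes of value + 1 on a log axis of base 2 for the 430 gained regions outside runs (left) and the 34182 other regions past the minimum (right), by cell type and by stage from puberty to pregnancy. Boxes span the quartiles, the line is the median over regions and whiskers reach the 5th and 95th percentiles. In the left panel ER- luminal cells step up at both stages, with medians of 12.9, 26.4 and 56.1, while basal medians of 12.7 and 11.1 precede a pregnancy median of 35.2.

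The size of the gain was unequal between cell types outside runs. Its median was 2.44 in ER+ luminal cells, 1.43 in ER- luminal cells and 1.52 in basal cells. The largest of the 3 gains was in ER+ luminal cells in 319 of the 430 regions (74.2%), in ER- luminal cells in 47 and in basal cells in 64. The smallest was in ER- luminal cells in 204 and in basal cells in 183. In the run of 20 the largest gain was less one-sided, with 12, 3 and 5 regions. ER+ luminal cells also had the most regions with a gain of at least 1 in the whole table, 25.0%, and their low baseline entered the choice. Regions that met the limits in all but 1 cell type numbered 228 for those that failed in ER+ luminal cells, 989 in ER- luminal cells and 661 in basal cells.

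**Figure D4:**
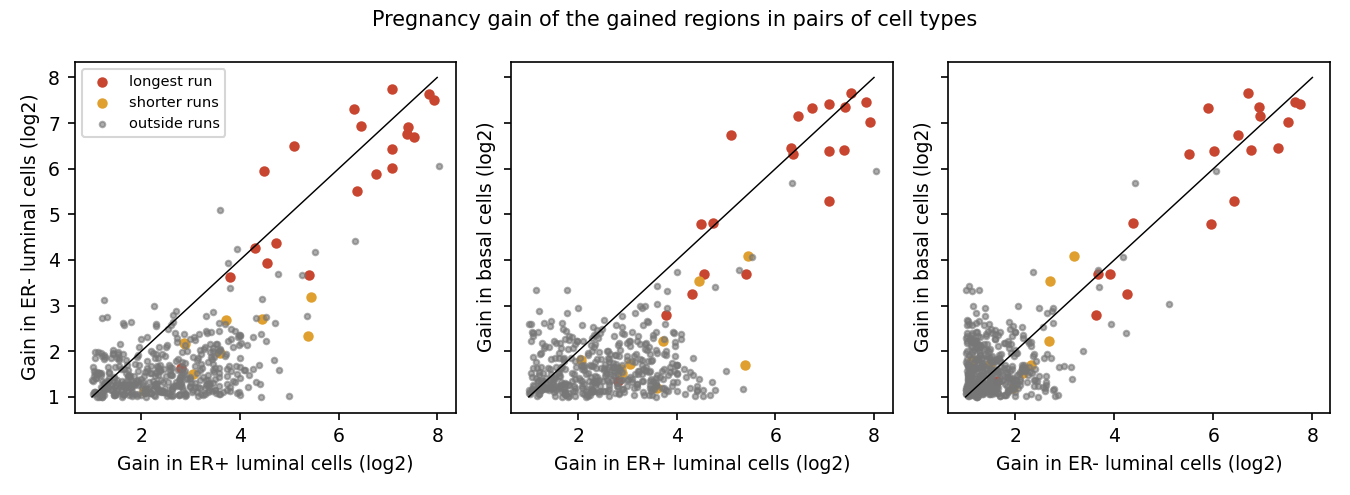
Gain of each of the 459 regions on a log2 scale in 1 cell type against another, in 3 panels for the 3 pairs, with the line of equal gain. The run of 20 (red) lies along the line at high gains in the 3 panels, with medians of 6.22 to 6.41, while most regions outside runs (grey) lie below the line in both panels with ER+ luminal cells on the horizontal axis.

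Outside runs the groups of libraries often overlapped. Every pregnancy value lay above every earlier value, whatever the cell type, in 186 of the 430 regions (43.3%), and in 384 of the 34182 other regions past the minimum (1.12%). Among all 459 gained regions this held in 213. These counts use the values that chose the regions, so the contrast with the other regions follows in part from the choice. In ER- luminal cells the pregnancy value was at least 2-fold above the puberty value, on the scale of value + 1, in 443 of the 459 regions but at least 2-fold above the adult value in only 260 (56.6%). In ER+ luminal cells these counts were 447 and 413, and in basal cells 375 and 409. The pregnancy value lay below the adult value in 3 regions in ER+ luminal cells, 5 in ER- luminal cells and 0 in basal cells. Of the 459 regions, 159 had the 2-fold difference over both stages in each of the cell types, and 19 of those 159 formed 1 run.

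Adult and pubertal libraries were also compared with each other. The choice used their mean, which a low value at either stage brings down. The differences between them are therefore not independent of the choice and describe the gained regions. In ER- luminal cells many gained regions were already more accessible in adults than at puberty. Here 216 of the 459 regions (47.1%) were at least 2-fold higher in adults and 4 (0.871%) at least 2-fold lower, against 12.9% and 9.44% of all regions. The median log2 difference was 0.94 in the gained regions and 0.01 in all regions. In ER+ luminal cells 126 (27.5%) were higher and 30 (6.54%) lower, against 14.4% and 8.64% of all regions, with medians of 0.42 and 0.03. Basal cells went the other way, with 48 (10.5%) higher and 78 (17.0%) lower, against 12.2% and 10.9% of all regions, and medians of -0.15 and 0.03. The adult value lay above the puberty value by any amount in 408 of the 459 regions (88.9%) in ER- luminal cells, 311 (67.8%) in ER+ luminal cells and 185 (40.3%) in basal cells, against 50.5%, 51.5% and 50.8% of all regions.

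**Figure D5:**
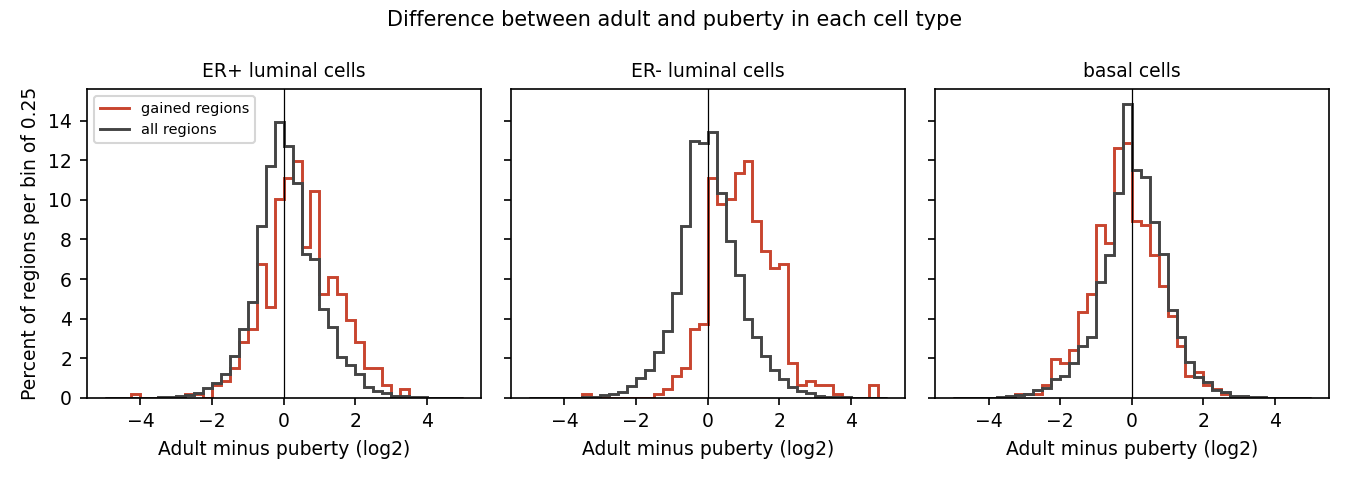
Percent of regions in bins of 0.25 of the log2 difference between the adult and the puberty library, for the 459 gained regions (red) and all 124860 regions (black), in 3 panels by cell type. The gained regions are shifted to higher adult values in ER- luminal cells (median 0.94 against 0.01), less so in ER+ luminal cells (0.42 against 0.03) and not upwards in basal cells (-0.15 against 0.03).

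These differences come from 1 adult and 1 puberty library in each cell type and have no replicate check. Other regions past the minimum, which are brighter, were at least 2-fold higher in adults in 4.50% in ER- luminal cells, 4.51% in ER+ luminal cells and 6.48% in basal cells. The 216 regions with the adult step in ER- luminal cells had median ER- luminal values of 7.89 (puberty), 29.7 (adult) and 56.1 (pregnancy). The 243 regions without it had 17.9, 22.3 and 59.2, so both sets ended at a similar level. Of the 216 regions, 74 had the step in ER+ luminal cells too, against 52 of the 243, and 28 against 20 in basal cells. The split itself sets the earlier ER- luminal medians apart. It was not made over all regions, so no link particular to the gained regions is read from these counts.

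A change from puberty to adulthood common to the 3 cell types was tested with limma over the 6 earlier libraries, in a model with additive effects of cell type and stage, adjusted by Benjamini-Hochberg over all regions. A single gained region was called, merged642, whose values are given above (log2 difference 2.28, SE 0.11, limma adjusted p = 6.194e-11, higher in adults in 3 of 3 cell types). None was called lower. Over all regions 0.0032% were called higher and 0.0016% lower. At an unadjusted p under 0.05, 68 gained regions (14.8%) were higher in adults and 2 (0.436%) lower, against 5.68% and 4.63% of all regions. The higher count rested on ER- luminal cells. It was 18 (3.92%, against 5.23% of all regions) without the adult ER- luminal library and 24 (5.23%, against 5.39%) without the puberty ER- luminal library. Without the adult or the puberty basal library it was 108 (23.5%, against 5.85%) and 107 (23.3%, against 5.96%). On whole reads edgeR's quasi-likelihood test called 2 gained regions higher and 1 lower, against 46 and 35 over all regions. In limma the median log2 difference of the gained regions was 0.42 in the 6 libraries. It was 0.69 without either basal library, 0.40 without either ER+ luminal library and 0.19 without either ER- luminal library. In these fits the cell type left with 1 library is assumed to vary like the others. With 2 residual degrees of freedom, the error of this model measures how far each library strays from additivity and holds no spread between animals. The 6 earlier libraries also set the baseline of the choice, so these counts are not independent of it.

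The same model gave the differences between cell types in the 6 earlier libraries. These earlier levels entered the choice as the baseline of each cell type, so the counts describe the gained regions and nothing further is read from them. ER+ luminal cells were mostly the lowest. At an adjusted p under 0.05 in limma, 3 gained regions were higher and 225 (49.0%) lower in ER+ than in ER- luminal cells, against 21.1% and 17.9% of all regions. Set against basal cells, ER+ luminal cells were higher in 6 and lower in 163 (35.5%), against 24.8% and 25.0% of all regions. ER- luminal cells were higher than basal cells in 72 (15.7%) and lower in 9 (1.96%), against 9.17% and 11.5% of all regions. The median log2 difference over gained regions leaned on single libraries. For ER- luminal minus basal cells it was 0.46 in the 6 libraries, against -0.06 over all regions. It was 0.06 without the adult ER- luminal library (-0.01 over all regions) and 0.12 without the adult basal library (-0.07). Without the puberty ER- luminal library it was 0.94 (-0.09). For ER+ minus ER- luminal cells it was -1.52, and -1.15 without the adult ER- luminal library (-0.06 and -0.04 over all regions). For ER+ luminal minus basal cells it was -1.14, and -0.66 without the puberty basal library (-0.02 over all regions in both).

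Some gained regions differed strongly between cell types before pregnancy. Those named here had the largest called differences. The choice required a pregnancy value of at least 20 in each cell type, so openness in all of them then follows from it. Region merged72228 had 0 and 0.86 in pubertal and adult ER+ luminal cells, against 31.5 and 44.6 in ER- luminal cells, and in pregnancy 42.4 in ER+ and 77.4 in ER- luminal cells. The log2 difference before pregnancy, -4.82, was the largest in that direction among the gained regions called between the luminal types. Region merged35828 was basal, with 0.53 and 0 in ER+ luminal, 5.73 and 2.97 in ER- luminal and 70.4 and 33.9 in basal cells at puberty and in adults, and 25.4, 25.8 and 117 in pregnancy. Both luminal types reached the minimum of 20 there, as the choice required, while basal cells remained highest. Region merged78384 belonged to ER- luminal cells, with 48.0 and 55.0 against 2.37 and 1.58 in basal cells, and 109 against 30.8 in pregnancy. Region merged97247 was highest in ER+ luminal cells at each stage, with 39.96, 50.5 and 100.01, against 2.37, 2.37 and 33.0 in basal cells. Region merged15146 of the long run was the called region with the largest excess in ER+ over ER- luminal cells, 15.3 and 28.2 against 2.15 and 3.71, and it had 488 against 237 in pregnancy.

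The cell types were closer to each other in pregnancy than before it in these regions. Outside runs, the log2 distance between the highest and the lowest cell type had a median of 2.07 (puberty), 2.22 (adult) and 1.15 (pregnancy). Over all regions it was 1.79, 1.91 and 1.20. The minimum value and the 3 gains limit how far apart the pregnancy values can lie, so part of this follows from the choice. ER+ luminal cells had the lowest of the 3 values in 361 of the 430 regions at puberty (84.0%), in 305 in adults (70.9%) and in 259 in pregnancy (60.2%), against 50.2%, 55.2% and 46.0% of the other regions past the minimum. ER- luminal cells had the highest value in 211 at puberty (49.1%), in 334 in adults (77.7%) and in 286 in pregnancy (66.5%). Among the other regions past the minimum, ER- luminal cells were highest in 38.5%, 28.8% and 50.7% at the 3 stages.

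The gained regions outside runs were spread over the whole table. In bins of 1000 region numbers the median count was 3 and the highest 10, and 2 of 125 bins held none. Across all regions, which are not independent replicates, the gains of pairs of cell types had a Pearson r of 0.258 between ER+ and ER- luminal cells, 0.182 between ER+ luminal and basal cells and 0.228 between ER- luminal and basal cells.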

How the data were processed

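Values are a signal per region that the authors normalised, per the file headers. MACS2 2.1.0.20151222, Bowtie2 2.2.6, Picard and SAMtools and the build GRCm38 are named in the submitters' processing notes. The sources used here do not state how regions were merged or whether reads were shifted for Tn5. Labels call the molecule total RNA, but their protocols describe ATAC-seq. In every library 100% of values came out, within 0.02 reads, as a whole number of equal steps, taken as reads divided by a size factor. No column was left unused.

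The test was limma 3.58.1 (R 4.3.3) on log2(value + 1), with a variance trend and no filter on low values, over the 6 puberty and adult libraries and all 124860 regions. This scale understates changes of low regions. Whole reads were tested with edgeR 4.0.16. The p-values measure departure from additive effects, not a spread between animals. A count of 0 allows up to 3 reads. Because PCR copies a molecule many times, intervals and floors speak for counting error only.

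The members, lists and alternatives were chosen with earlier results of these data known. Named were the region outside runs with the largest mean gain, that with the highest mean pregnancy value, the runs, and for each comparison the called region with the largest difference in each direction. Single regions of the runs, their flanks and a stretch of numbers described last were picked after their values were seen.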

Additional observations from a re-analysis of the deposited data

Results flagged for a closer look

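The change from puberty to adulthood in the gained regions had opposite signs in ER- luminal and basal cells. Its median log2 difference was 0.94 in ER- luminal cells and -0.15 in basal cells, 1.09 apart, while both medians over all regions lay within 0.03 of 0. It drew attention because medians of the cell types moved in opposite directions. The difference itself was not tested, since each median comes from 1 adult and 1 puberty library.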

How the results depend on the processing

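The number of gained regions depended on the limits and the scaling, and the run of 20 did so less. The 459 regions became 41 with a minimum gain of 2, 1477 with a minimum pregnancy value of 10, 83 with a minimum of 40, 1245 with the same total per library, 159 with a gain over puberty and adulthood each and 290 over adulthood alone. With 1 cell type left out there were 1113 to 1658. Equal depth gave 532, of which 305 were among the 459, and quantile normalization 593, of which 387 were. The longest run held 19 to 23 regions in these settings, and 10 with the minimum of 40. Gained regions in runs numbered 52 with numbers up to 5 apart, against 29. Between adult and puberty edgeR called 3 gained regions, and leaving out 1 library gave 1 to 4. Leaving out 1 library gave 91 to 253 calls between ER+ and ER- luminal, 98 to 174 between ER+ luminal and basal and 24 to 102 between ER- luminal and basal cells. The share at least 2-fold higher in adults was 18.7% with quantile normalization, 40.1% at equal depth, 15.3% with a pseudocount of 4 and 34.6% with 0.25 in ER+ luminal cells, against 9.35%, 20.5%, 7.70% and 17.6% of all regions. In ER- luminal cells it was 39.4% with quantile normalization and 37.3% with a pseudocount of 4, against 10.4% and 6.20% of all regions. In basal cells it was 18.1% at equal depth and 6.32% with a pseudocount of 4, against 18.1% and 7.13% of all regions. The 7 log2 differences of named regions kept their sign in 12 of 12 alternatives each. These regions were picked as the largest called differences in the same 6 libraries that the alternatives reuse. Among the alternatives, 1 also added the pregnancy libraries that chose the regions, so this is no independent check. No paired analysis was possible because each group has 1 library and replicate numbers pair nothing, while cell type is a term of the model throughout. Depth limits the gained regions near the minimum, which rest on 10 to 14 pregnancy reads.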

Other observations

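A stretch of 15 region numbers around merged3152, from 3140 to 3154, was noticed after its values were seen and is given without a test. Of its regions, 5 had at most 3 reads in the 6 earlier libraries together, out of 41 such regions in the whole table. Regions merged3140 and merged3148 had no earlier read, as had 7 regions in all. Region merged3140 had 30.5, 59.2 and 19.8 in pregnancy in ER+ luminal, ER- luminal and basal cells, and region merged3148 had 33.9, 19.7 and 55.0. Each missed the minimum of 20 in 1 cell type. Region merged3147, which was gained, had 79.7, 27.3 and 50.6 in pregnancy and a single read before it. Region merged3154 had 25.4, 18.2 and 33.0 in pregnancy against 0 to 1.58 in the earlier libraries. Regions with little change lay among them, as region merged3153, which had 23.7, 48.5 and 59.4 in pregnancy against 17.4 to 54.5 in the earlier libraries. Whether these numbers neighbour each other in the genome is not given by the table.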
